A study of Mus musculus with 227 samples.

Results

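The thyroid hormones of the screen were T4 (labelled Levothyroxine·Na) and T3 (labelled Liothyronine·Na), chosen by the agent named in the labels, and they account for 2 of the 218 drug libraries, 1 library each. All libraries came from mouse cerebral cortex taken at embryonic day 16.5 from F1 embryos of an FVB/N mother and a C3B6F1 father, dissociated and kept for 21 days in vitro, and every drug or vehicle was applied for 8 h. The hormones were set against the 29 other drug libraries of the same sequencing run code and against 9 libraries of vehicle cultures (0.2% DMSO). Only 1 of the 9 vehicles, vehicle 4, carries the hormones' run code. All groups were grown with B27, a culture supplement whose standard formula contains T3, so neither set of comparison cultures is known to have been free of thyroid hormone. Doses were not in the sources used here, so the hormones are set side by side at doses that may differ. Nothing in the labels says that the libraries came from separate preparations, so p-values measure the spread between these libraries, which may be technical.

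T4 is the main hormone released by the thyroid gland and carries a further iodine atom on its outer ring that T3 lacks. In the brain, T4 enters cells through transporters such as OATP1C1, the deiodinase DIO2 of astrocytes removes that iodine to give T3, and DIO3 inactivates both hormones. T3 binds the nuclear receptors TRα and TRβ, which sit on DNA with retinoid X receptors, and its binding exchanges corepressors for coactivators at target genes.

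The T4 library held 28.15 M and the T3 library 26.32 M counted reads, against 23.77 M to 39.14 M in the other drugs of the run and 31.4 M to 43.77 M in vehicles. The hormones shared sequencing lane 8 with the Mirtazapine and Modafinil libraries, so lane and hormone are separable only through those 2 libraries. Over 12564 genes the T4 and T3 libraries differed by a chi-square of 13.97 per gene, so neither is a copy of the other. Neuron markers summed to 5069 and 4645 CPM (counts scaled to library size with TMM factors) in the T4 and T3 libraries, against 4130 to 5870 CPM in other drugs of the run, and astrocyte markers to 7451 and 7860 CPM, against 5979 to 8203 CPM. Vehicles spanned 4913 to 6843 CPM for neuron markers and 5830 to 7535 CPM for astrocyte markers. The T3 library lay below that neuron range and above that astrocyte range, and the T4 library lay inside both. Microglia markers summed to 5.08 and 5.8 CPM and endothelial markers to 3.18 and 3.3 CPM, with 2 of 6 endothelial markers at 0 in both hormone libraries. These are mixed cultures measured in bulk, in which fewer cells of a type and less RNA per cell cannot be told apart.

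Against the other drugs of their run, the hormones raised more genes than they lowered. Of 15188 genes tested with edgeR's quasi-likelihood test at a Benjamini-Hochberg adjusted p under 0.05, 468 rose (3.08%) and 116 fell (0.764%). At the same threshold 584 genes (3.85%) passed in either direction. The median rise was 0.39 and the median fall -0.30 on the log2 scale, and 47 genes rose and 6 fell by more than 1 log2 unit. Both hormone libraries lay above all 29 other drugs for 406 of the 468 rises, beside 3.27% of all genes tested, and below all 29 for 83 of the 116 falls; 4.52% of all genes tested lay outside the 29 in either direction. Against vehicles, 196 of 15059 genes passed (1.3%), of which 145 rose (0.963%) and 51 fell (0.339%); both hormones lay above every vehicle for 9.26% and below every vehicle for 10.1% of all genes tested. DESeq2 called 419 rises and 505 falls against vehicles, so that falls outnumbered rises, and T4 or T3 alone gave at most 25 rises and 1 fall by edgeR. Of the edgeR calls against vehicles, 135 rises were also rises within the run (93.1% of the vehicle rises and 28.8% of the run rises), as were 20 falls (39.2% and 17.2%), and no gene was called in opposite directions. The comparisons share both hormone libraries. Without the T3 library, 180 genes rose and 9 fell within the run, and without the T4 library, 200 rose and 14 fell. Of 76 genes followed one by one that passed within the run, 31 did not pass with T4 alone and 27 did not with T3 alone, while leaving out any 1 of the other drugs lost none. Hr and Stat5a passed with either hormone alone in both comparisons, and Prlr, Dio3, Shh, Bcar3 and Nrarp did so within the run. Calls that needed both hormone libraries within the run included Gls2, Angptl2, Klf9, Aldh1a1, Kcnj10, Megf10, Rasd2 and Gli2 among the rises and Gcnt2, Il4ra, Thrsp, Etv5, Kcns3 and Ggn among the falls, while Fzd9 was lost with T3 alone, and Hes5, Hapln3 and Stat5b with T4 alone. Against vehicles, 35 of 50 such genes did not pass with T4 alone and 33 did not with T3 alone, Hes5, Prlr and Dio3 among both.

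**Figure D1:**
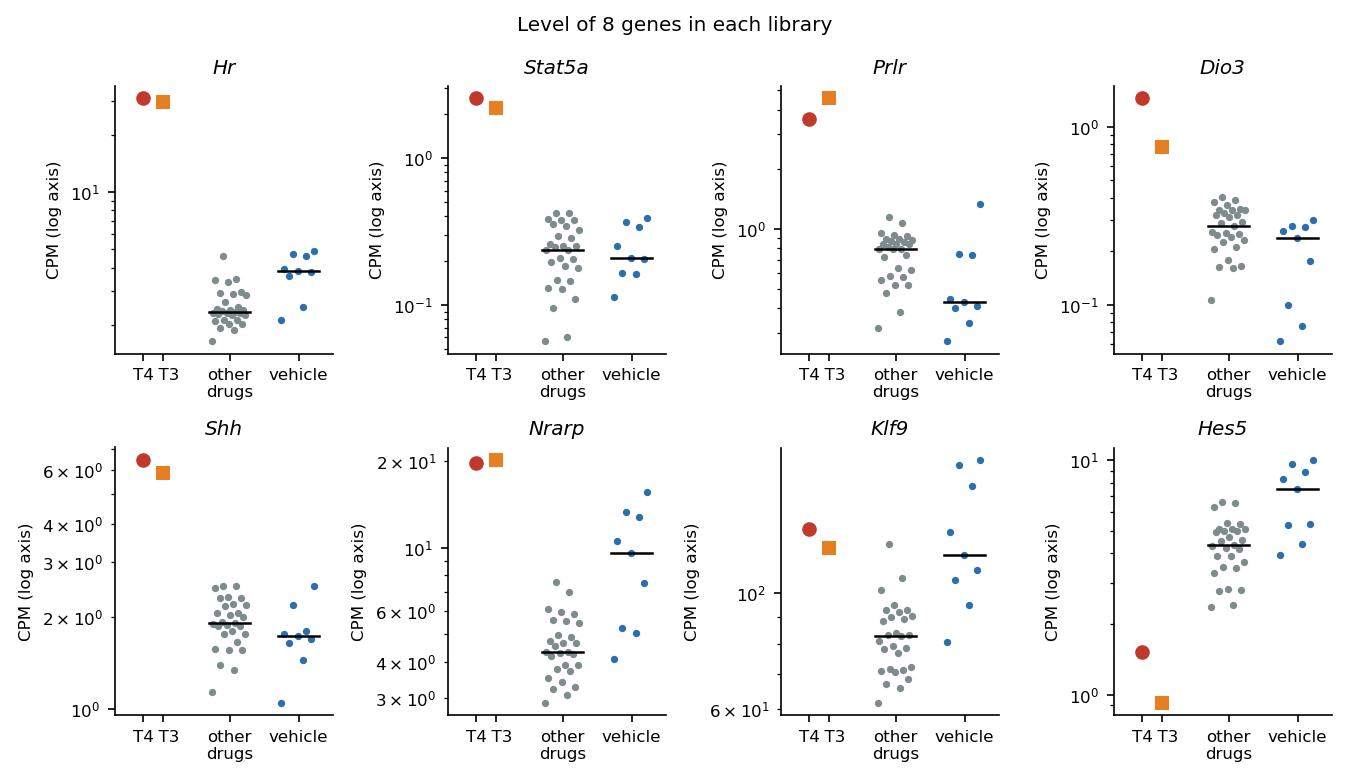
CPM of 8 genes, 1 point per library on log axes, in T4 (circle), T3 (square), the 29 other drugs of the run and 9 vehicles; bars are medians. Both hormones lie above every comparison library for Hr, Stat5a, Prlr, Dio3, Shh and Nrarp and below every one for Hes5, while for Klf9 they lie inside the range of the vehicles.

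Among genes known as targets of thyroid hormone in the nervous system, Hr (chr14:70552212-70573548, mm10), which encodes the corepressor hairless, had 31.2 CPM in the T4 and 29.8 CPM in the T3 library, against 1.64 to 4.6 CPM (median 2.3) in the other drugs of the run and 2.1 to 4.89 CPM (median 3.85) in vehicles. No comparison library came near the hormones. Its log2 fold change was 3.59 ± 0.15 (SE) within the run (adjusted p = 2.42e-18, edgeR) and 3.02 ± 0.21 against vehicles (adjusted p = 4.96e-05). The lane mates Mirtazapine and Modafinil had 1.64 and 2.32 CPM.

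Stat5a (chr11:100859351-100885169), which encodes a transcription factor activated by cytokine and prolactin receptors, was a rare transcript that rose to 2.56 CPM with T4 and 2.18 CPM with T3, against 0.0564 to 0.425 CPM (median 0.237) in other drugs and 0.113 to 0.390 CPM (median 0.210) in vehicles. The groups did not overlap, and the log2 fold change was 3.3 ± 0.27 within the run (adjusted p = 2.47e-10, edgeR) and 3.27 ± 0.30 against vehicles (adjusted p = 0.000269). Stat3 overlaps the end of Stat5a on the opposite strand and did not pass the test (177 and 224 CPM, against 160.1 to 270.2 CPM in other drugs). Whether reads were counted by strand is not given in the sources used here.

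The promoters of Stat5a are shown because both of its RefSeq start sites carry the receptor half-site AGGTCA (searched on both strands, capitals below) within 300 bases, 250 before and 50 after the start. The Bmf start with such a match is shown beside them, since Bmf alone had one among the 15 largest rises with a mean of 1 CPM or more over the libraries compared, of which 11 matched the RefSeq table (GRCm38.p6); its other windows had none.
Stat5a start 1, chr11:100859406-100859705, plus strand: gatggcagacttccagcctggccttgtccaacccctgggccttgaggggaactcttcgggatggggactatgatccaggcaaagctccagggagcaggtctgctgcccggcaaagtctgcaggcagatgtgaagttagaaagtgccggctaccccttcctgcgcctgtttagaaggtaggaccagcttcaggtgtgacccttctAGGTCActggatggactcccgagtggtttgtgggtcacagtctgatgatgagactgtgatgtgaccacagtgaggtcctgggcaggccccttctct
Stat5a start 2, chr11:100860234-100860533, plus strand: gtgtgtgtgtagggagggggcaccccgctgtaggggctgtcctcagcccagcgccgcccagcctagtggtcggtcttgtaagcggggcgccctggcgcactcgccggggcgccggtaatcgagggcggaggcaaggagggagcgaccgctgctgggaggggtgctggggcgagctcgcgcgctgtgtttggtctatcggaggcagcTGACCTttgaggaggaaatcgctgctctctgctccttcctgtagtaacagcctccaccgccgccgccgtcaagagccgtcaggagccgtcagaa
Bmf, chr2:118549637-118549936, minus strand: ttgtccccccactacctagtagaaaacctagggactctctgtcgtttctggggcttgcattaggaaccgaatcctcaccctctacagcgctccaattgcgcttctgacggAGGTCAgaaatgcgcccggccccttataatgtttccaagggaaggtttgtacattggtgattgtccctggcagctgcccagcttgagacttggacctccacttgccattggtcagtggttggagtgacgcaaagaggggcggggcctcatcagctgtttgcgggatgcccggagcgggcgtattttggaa
The matches lie 46 and 44 bases before the Stat5a starts, the second on the opposite strand, and 140 bases before the Bmf start. AGGTCA is common, being present in 16.3% of 32851 promoter windows of the same length. It was found in 1 of 17 windows of the named rises and in 1 of 17 windows of the named falls (Ggn). Stat5a is not among these named rises and was searched in addition. Dio3, Klf9, Prlr, Dbp, Flywch2 and Sema7a were also searched in addition, and their windows had no match. The direct repeat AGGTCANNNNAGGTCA, the classical receptor element, was in 0.0152% of all windows and in none of the named ones. A match is a string of letters in the window and says nothing of binding.

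Of the 29 neural target genes tested, 12 rose and none fell within the run, where 3.08% of all genes rose and 0.764% fell. The list median was 0.10, beside -0.013 over all genes. Against vehicles 6 rose and none fell, where 0.963% of all genes rose and 0.339% fell. The median there was 0.27, beside -0.0044 over all genes. The list was drawn up with earlier results of these data known, so its counts are a description and no independent test. The guanylate-binding protein gene Gbp3 had 13.4 and 16.3 CPM (T4 and T3), against 1.75 to 7.32 CPM in other drugs, a log2 change of 1.95 ± 0.22. Shh, the hedgehog ligand gene, had 6.46 and 5.83 CPM, against 1.1 to 2.51 CPM in other drugs and 1.05 to 2.51 CPM in vehicles. Both hormones stood above all of these libraries, and Shh rose by 1.67 ± 0.16 within the run and 1.81 ± 0.21 against vehicles on the log2 scale. Sema7a, a membrane-anchored semaphorin, rose by 1.08 ± 0.17 within the run, Flywch2 by 1.1 ± 0.12 and Rasd2, the striatal small GTPase Rhes, by 0.88 ± 0.20. Against vehicles these 3 had adjusted p-values of 0.067, 0.0644 and 0.477 (edgeR), and the vehicle range of Rasd2 (14.5 to 29.2 CPM) took in both hormone values (26.1 and 22.5 CPM).

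Klf9, a Krüppel-like factor gene known to respond directly to T3, depended on the comparison. It had 132.5 and 122.0 CPM in the T4 and T3 libraries, against 61.6 to 124.2 CPM (median 82.5) in other drugs and 80.4 to 179.9 CPM (median 118.0) in vehicles. The T3 value lay just inside the range of the other drugs. Within the run it rose by 0.62 ± 0.15 (adjusted p = 0.01, edgeR), a call not made by limma with run code over all libraries, as was also so for Kcnj10, Angptl2, Etv5 and Gli2. Against vehicles the log2 difference was -0.01 ± 0.26 (adjusted p = 0.98), and vehicle 4 of the same run had 94.9 CPM. Of the 12 Krüppel-like factors tested, Klf9 alone passed the test within the run. The retinaldehyde dehydrogenase gene Aldh1a1 rose in both comparisons (0.66 ± 0.18 and 1.1 ± 0.19); its near-identical copy Aldh1a7, with which reads may be shared, rose by 2.1 ± 0.22 and 2.29 ± 0.25. Itga7 passed against vehicles (1.1 ± 0.22) and not within the run (0.66 ± 0.24, adjusted p = 0.143). Reln, Nrgn, Camk4 and Hapln1, also known as targets in brain or neurons, differed by 0.05, -0.13, 0.06 and 0.04 within the run and passed in neither comparison.

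The receptor genes themselves moved little. Thra had 233 and 232 RPKM and Thrb 10.3 and 11 RPKM in the T4 and T3 libraries, against medians of 248 and 10.3 RPKM in other drugs of the run and 288 and 11.6 RPKM in vehicles. In these per-length values the Thra transcript was the more abundant receptor, although Thra overlaps Nr1d1 on the opposite strand. Neither passed the test in either comparison. Rxrb rose by 0.26 ± 0.05 within the run, the only one of 5 receptor and partner genes to pass. Of 14 receptor cofactor genes, 3 rose within the run, among them the coactivator genes Ncoa1 and Ncoa3, by 0.26 ± 0.05 and 0.30 ± 0.05, which also rose against vehicles (0.38 ± 0.08 and 0.34 ± 0.07). Ncoa3 had 51.4 and 49.6 CPM, against 36.2 to 44.6 CPM in other drugs and 35.9 to 44.6 CPM in vehicles, so the groups did not overlap.

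None of 9 transport and binding genes passed either edgeR test, with 2 at an unadjusted p under 0.05 within the run and 3 against vehicles. The OATP1C1 gene Slco1c1 had 87.7 and 87.5 CPM, against 90.1 to 325.1 CPM in other drugs. Both Slco1c1 values lay just below the other drugs, whose highest library was Formoterol. Ttr, which encodes the carrier transthyretin, had 1.49 CPM with T4 and 17.3 CPM with T3, within the 0.0250 to 64.9 CPM of the other drugs.

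Among deiodinase genes, Dio3 (chr12:110279068-110281097), whose enzyme inactivates T4 and T3, had 1.45 CPM with T4 and 0.774 CPM with T3, against 0.106 to 0.405 CPM (median 0.276) in other drugs and 0.0621 to 0.301 CPM (median 0.236) in vehicles. Both hormones exceeded every comparison library, and Dio3 rose by 2.02 ± 0.24 within the run (adjusted p = 2.05e-07, edgeR) and by 2.47 ± 0.41 against vehicles (adjusted p = 0.0142). The T4 minus T3 difference was 0.88 (95% interval -0.01 to 1.8). Dio2, which encodes the activating enzyme, had 27.8 and 31.0 CPM, against 22.7 to 316.3 CPM (median 29.4) in other drugs, and did not pass (-0.48 ± 0.70). Dio1 was at 0 in both hormone libraries.

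Prlr, the prolactin receptor gene, rose to 3.59 CPM with T4 and 4.57 CPM with T3, against 0.318 to 1.1 CPM in other drugs and 0.272 to 1.3 CPM in vehicles. Its log2 fold change was 2.44 ± 0.20 within the run and 2.82 ± 0.40 against vehicles, with no overlap between groups. Stat5b rose by 0.33 ± 0.06 within the run. Known STAT5 target genes did not pass in either comparison, with log2 differences within the run of 0.20 for Cish, -0.12 for Socs1, -0.18 for Socs2 and -0.08 for Bcl6. Of 18 tested genes of this pathway, 3 rose (Stat5a, Stat5b and Prlr) and none fell within the run. Over all genes 3.08% rose and 0.764% fell. Stat5a and Stat5b also belong to the neural target list counted above, and the median of the pathway list was -0.07.

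**Figure D2:**
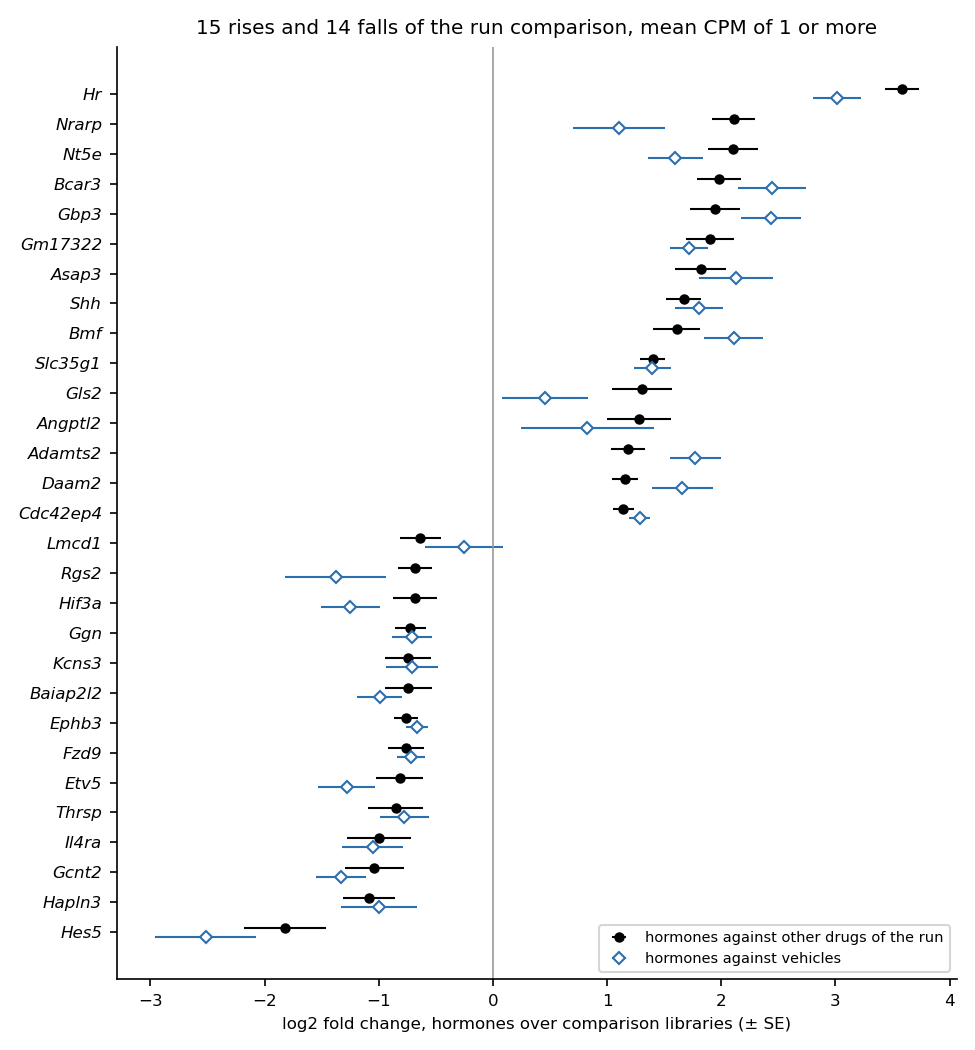
Log2 fold change (± SE) of the 15 largest rises and 14 of the 15 largest falls within the run among genes with a mean of 1 CPM or more, for hormones over other drugs of the run (filled circles) and over vehicles (open diamonds). The rises span 3.59 (Hr) to 1.1 (Cdc42ep4) and the falls -1.82 (Hes5) to -0.64 (Lmcd1); Nrarp stands at 2.1 and 1.1, Gls2 at 1.31 and 0.46 and Hes5 at -1.82 and -2.52 in the run and vehicle comparisons.

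Rises were also found outside the target list. Bcar3, which encodes an adaptor that binds p130Cas, had 52.3 and 47.3 CPM, against 7.23 to 21.2 CPM in other drugs and 6.44 to 15.3 CPM in vehicles, and rose by 1.98 ± 0.19 and 2.44 ± 0.30 in the run and vehicle comparisons. Nt5e, the ecto-5'-nucleotidase CD73 that makes adenosine, rose by 2.1 ± 0.22, and Bmf, a BH3-only promoter of apoptosis, by 1.61 ± 0.20 within the run. Asap3, an Arf GTPase activating protein gene, rose by 1.82 ± 0.22, the formin gene Daam2 by 1.2 ± 0.12 and the Cdc42 effector gene Cdc42ep4 by 1.1 ± 0.09. All 6 also rose against vehicles. Gls2, a glutaminase gene, and Angptl2, a secreted angiopoietin-like protein gene, rose within the run by 1.31 ± 0.26 and 1.28 ± 0.28 and gave 0.46 ± 0.38 and 0.83 ± 0.58 against vehicles, where neither passed. The non-coding Gm17322 rose by 1.9 ± 0.21; its end overlaps the start of Cyp11a1 on the same strand, where reads of the pair cannot be told apart, and Cyp11a1 rose by 1.6 ± 0.32. Adamts2, a procollagen peptidase gene, and Slc35g1 rose by 1.2 ± 0.15 and 1.4 ± 0.11.

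Notch pathway genes moved in both directions. Nrarp, a target and feedback regulator of Notch, had 19.6 and 20.2 CPM, against 2.89 to 7.57 CPM in other drugs and 4.1 to 15.7 CPM in vehicles. It rose by 2.1 ± 0.19 within the run; against vehicles the difference was 1.1 ± 0.40 (adjusted p = 0.173, edgeR), although both hormone libraries exceeded every vehicle. Hey1, a Notch-induced repressor gene, had 66.5 and 75.0 CPM, against 35.4 to 44.4 CPM in other drugs and 35.5 to 43.0 CPM in vehicles. Its rise was close in size in both comparisons (0.83 ± 0.06 and 0.89 ± 0.07) and the groups did not overlap. Hes5 (chr4:154960923-154962371), another Notch-induced repressor gene, showed the largest fall among genes with a mean of 1 CPM or more, to 1.5 CPM with T4 and 0.922 CPM with T3, against 2.4 to 6.59 CPM in other drugs and 3.9 to 10.0 CPM in vehicles. It fell by 1.82 ± 0.36 on the log2 scale within the run (adjusted p = 0.00113, edgeR) and by 2.52 ± 0.44 against vehicles (adjusted p = 0.0187). The other 13 of 16 pathway genes tested, among them Notch1, Rbpj and Hes1, did not pass within the run. Hes7, a gene of the Hes family outside this list that was named after its values were seen, also fell within the run. Its log2 change ranged from -1.17 to -0.75 over the alternatives tried.

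Falls outside the Notch pathway included the rare opsin transcript Opn1sw, named after its values were seen, with the largest fitted fall of all, at 0.0345 CPM with T4 and 0 with T3, against 0 to 0.477 CPM in other drugs; the groups overlapped, and it did not pass against vehicles. Ephb3, an ephrin receptor gene, had 24.6 and 20.6 CPM, against 30.4 to 46.5 CPM in other drugs and 33.7 to 42.4 CPM in vehicles, and fell by 0.76 ± 0.11 and 0.66 ± 0.09. Fzd9, a Wnt receptor gene, fell by 0.76 ± 0.16 and 0.72 ± 0.12, Etv5, an ETS factor gene induced by FGF and ERK, by 0.82 ± 0.21 and 1.28 ± 0.25, and Gcnt2, a glycan-branching enzyme gene, by 1.04 ± 0.26 and 1.33 ± 0.22. For each of these 3 genes both hormones lay below all 29 other drugs and all vehicles. Il4ra, Hapln3, Kcns3 and Ggn fell within the run and did not pass against vehicles. Thrsp, which thyroid hormone induces in rodent liver, had 15.8 and 20.2 CPM, against 14.8 to 44.0 CPM in other drugs, a fall of 0.85 ± 0.24 within the run, while the lipogenic enzyme gene Fasn rose by 0.29 ± 0.05. They were the only calls among 13 tested targets from other tissues.

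Of 18 circadian genes 4 rose and none fell within the run, where 3.08% of all genes rose and 0.764% fell. Against vehicles 1 rose and none fell. The list median was 0.05 within the run and -0.08 against vehicles. Dbp, a PAR bZIP factor gene also known to respond to T3, had 78.9 and 73.8 CPM, against 23.7 to 59.7 CPM in other drugs and 30.2 to 59.5 CPM in vehicles, and rose by 1.09 ± 0.18 within the run; against vehicles the difference was 0.78 ± 0.17 (adjusted p = 0.0577, edgeR). Per3 had 46.3 and 44.4 CPM, against 21.5 to 36.1 CPM in other drugs, and rose in both comparisons (0.64 ± 0.12 and 0.57 ± 0.09). Hlf and Nr1d2 rose within the run by 0.48 ± 0.09 and 0.45 ± 0.09. The core genes Arntl, Clock, Per1, Per2, Cry1 and Cry2 did not pass, with log2 differences of -0.36, 0.01, -0.21, -0.15, -0.10 and -0.05.

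Glial genes changed in both directions. Among 12 myelin and oligodendrocyte genes tested within the run, Mobp, a myelin protein gene, rose at a low level (0.415 and 0.701 CPM, against 0.0298 to 0.547 CPM in other drugs; 1.8 ± 0.52), and Ugt8a, which makes galactocerebroside, rose by 0.48 ± 0.13. Olig2, the lineage factor gene, fell by 0.29 ± 0.09 within the run and 0.57 ± 0.11 against vehicles, and the call within the run was lost with RLE factors. The myelin basic protein gene Mbp differed by -0.04 within the run and did not pass. The astrocyte glutamine transporter gene Slc38a3 had 571 and 599 CPM, against 217.3 to 366.1 CPM in other drugs and 130.8 to 290.6 CPM in vehicles, and rose by 1.05 ± 0.13 and 1.5 ± 0.26. Megf10, a phagocytic receptor gene of astrocytes, rose by 0.87 ± 0.17 and 1.37 ± 0.24. Kcnj10, the astrocyte potassium channel Kir4.1, rose by 0.46 ± 0.13 within the run. Of 8 astrocyte markers, the glutamate transporter gene Slc1a2 rose within the run (0.40 ± 0.08) and the list median was 0.09; against vehicles none passed and the median was 0.44. The markers' part in these rises was not tested.

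In mitochondrial regulation, Ppargc1b, a coactivator of respiratory genes, rose by 0.62 ± 0.10 within the run, with 13.2 and 12.6 CPM against 6.6 to 9.97 CPM in other drugs. Gpd2, the mitochondrial glycerol phosphate dehydrogenase known as a thyroid hormone target in liver, rose by 0.26 ± 0.06. The other 14 of 16 genes of this list did not pass. Several genes outside the lists, chosen after their values were seen, were as distinct. Cldn12 had 79.6 and 78.9 CPM, against 35.2 to 45.9 CPM in other drugs and 39.3 to 44.0 CPM in vehicles, with rises of 0.96 ± 0.06 and 0.91 ± 0.05. The axon guidance receptor gene Ephb1 had 44.2 and 43.1 CPM, against 14.6 to 23.3 CPM and 18.8 to 23.7 CPM, and Pfkfb4, a regulator of glycolysis, 21.1 and 21.7 CPM, against 8.25 to 12.8 CPM and 6.70 to 10.8 CPM. All 3 were separated from every comparison library. Ighm, the immunoglobulin heavy chain constant gene, had 2.07 and 1.03 CPM, against at most 0.0692 CPM in other drugs and 0.155 CPM in vehicles. Of the hedgehog pathway genes looked at after Shh, the transcription factor gene Gli2 rose within the run (0.61 ± 0.13) while Gli1, a common readout of that pathway, gave 1.06 ± 0.46 and Ptch1 -0.12 ± 0.06, neither past the threshold.

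The comparison with vehicles also carried differences of whole gene groups. Activity-regulated genes had a median log2 change of -1.59 against vehicles and -0.36 within the run, and hypoxia genes -1.40 and -0.30. Summed over the 25 activity-regulated genes, the hormone libraries had 636 and 605 CPM, the other drugs 484 to 1501 CPM (median 742) and the vehicles 760.1 to 3422 CPM. The hormones thus lay inside the range of their run and below every vehicle. Of 25 activity-regulated genes, Btg2 and Rgs2 fell within the run and Btg2 fell against vehicles; of the hypoxia list, Ankrd37 fell against vehicles. For genes that passed against vehicles alone, such as Ankrd37, Nnmt, Krt77, Npsr1 and A830029E22Rik, run and hormone cannot be told apart.

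**Figure D3:**
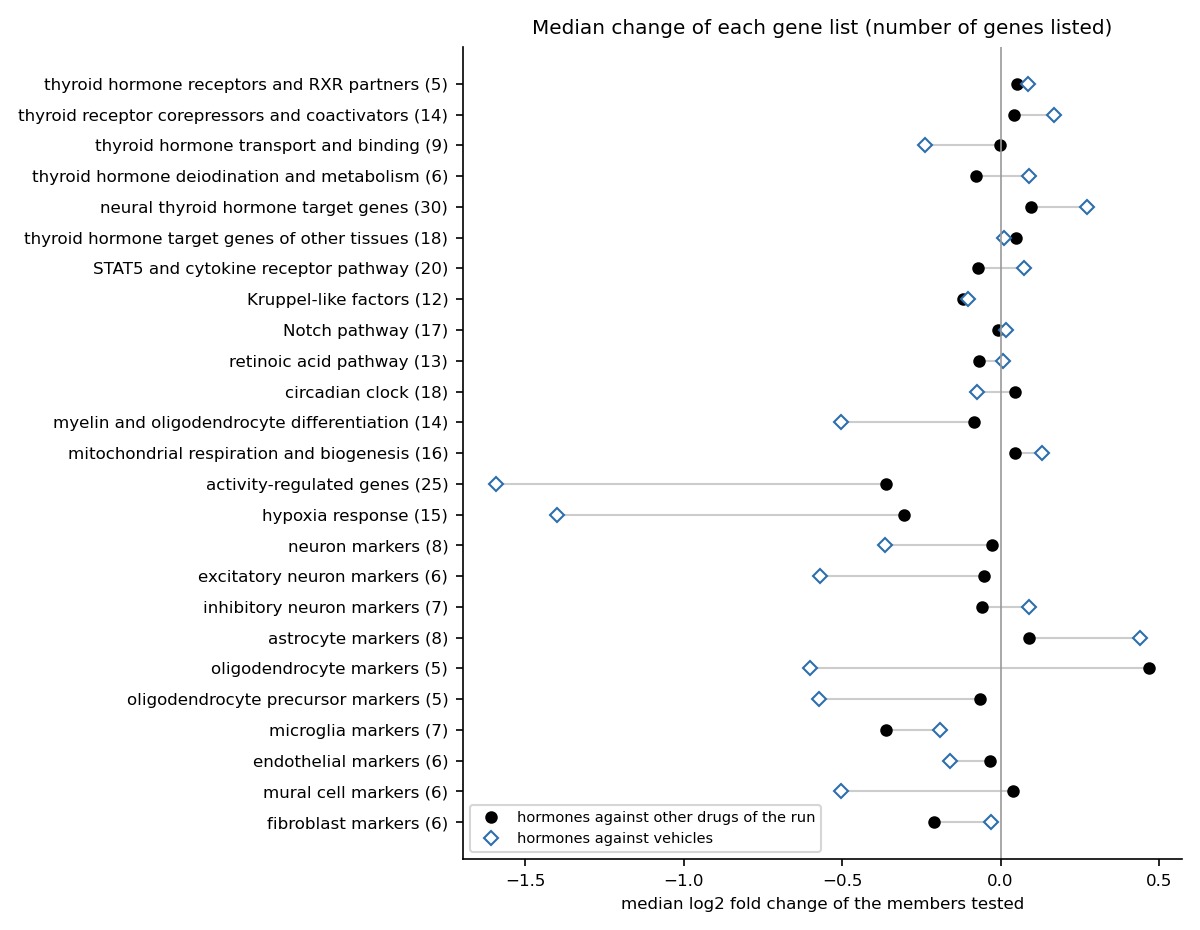
Median log2 fold change of the tested members of each gene list, for hormones over other drugs of the run (filled circles) and over vehicles (open diamonds), with the number of genes listed. Activity-regulated and hypoxia genes sit at -1.59 and -1.40 against vehicles and at -0.36 and -0.30 within the run.

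T4 and T3 were then compared with each other, the 1 pair of related compounds, which differ by the outer-ring iodine. Each hormone has 1 library, so the spread was taken from the other drugs of the run and each hormone is assumed to vary like them. None of 15419 genes differed at an adjusted p under 0.05 by edgeR or by DESeq2, and 210 (1.36%) had an unadjusted p under 0.05 by edgeR. Over the 468 run rises the median T4 minus T3 difference was -0.01, and over the 116 falls it was 0.03. Among the 584 genes called within the run, the 95% interval of the difference lay within 1 log2 unit either way for 535; for the remaining genes the interval reaches past 1 log2 unit. The interval excluded 0 for 6 of them (1.03%, beside 1.36% of all genes), named here after their values were seen. They were Rcan1, Fdxr, Sucnr1, Gm17455, B4galt5 and Pigs, each lower with T4, with Rcan1 at 58.6 CPM with T4 and 74.6 CPM with T3.

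For single genes the intervals were wide. The T4 minus T3 difference was 0.05 (-0.71 to 0.80) for Hr, 0.21 (-0.93 to 1.36) for Stat5a, 0.13 (-0.55 to 0.81) for Shh and 0.10 (-0.53 to 0.73) for Klf9. Narrower intervals were reached for abundant genes, with -0.01 (-0.29 to 0.27) for Cldn12 and 0.05 (-0.36 to 0.46) for Cdc42ep4. Asap3 had 8.81 CPM with T4 and 15.2 CPM with T3, a difference of -0.80 (-1.77 to 0.17). A p that misses the threshold does not show that the hormones act alike. The largest differences by unadjusted p included Lamb3 (2.38 CPM with T4 and 1.1 CPM with T3) and, in the other direction, the interneuron gene Pvalb (0.587 and 1.47 CPM) and Net1, an exchange factor gene for RhoA (21.2 and 40.7 CPM). For Net1 the T4 value lay within and the T3 value above the 14.2 to 35.0 CPM of the other drugs.

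**Figure D4:**
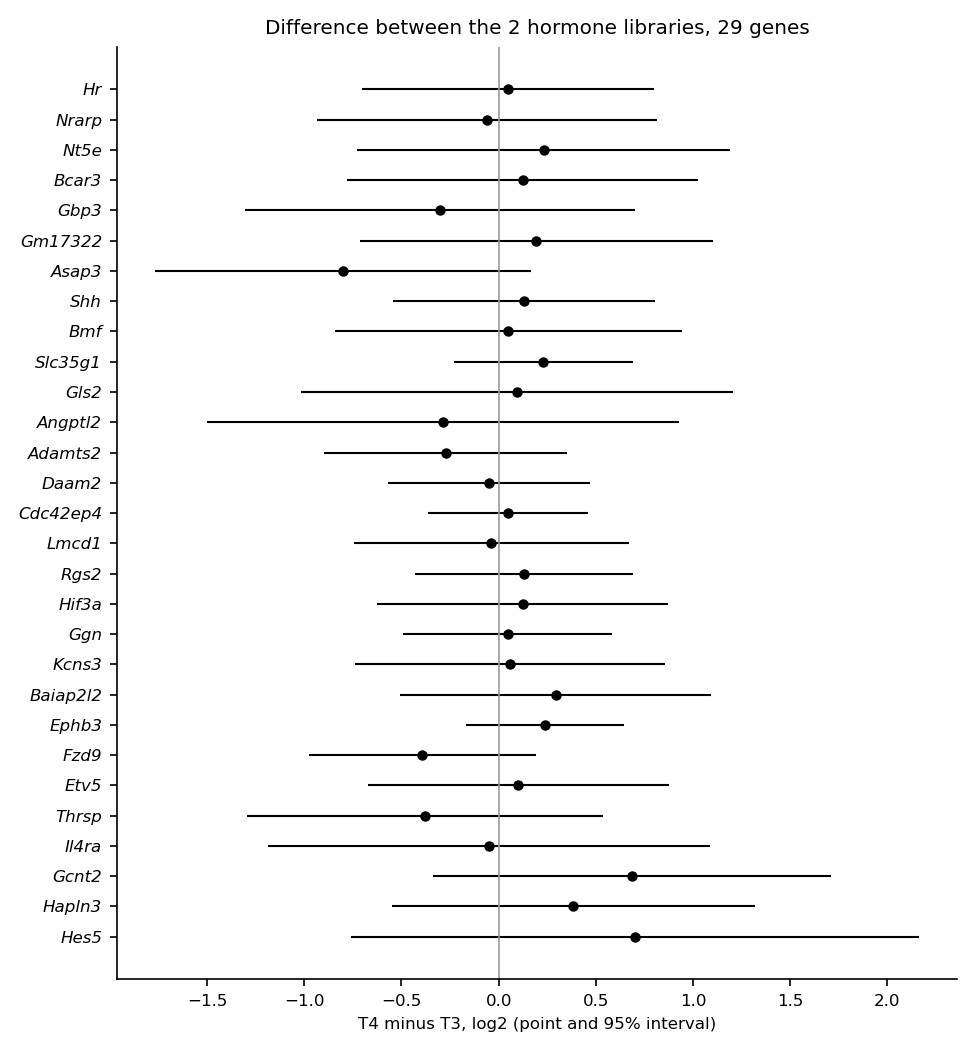
T4 minus T3 difference (log2, point and 95% interval) for the 15 largest rises and 14 of the 15 largest falls with a mean of 1 CPM or more. All 29 intervals include 0; that of Hr runs from -0.71 to 0.80 and that of Hes5 from -0.76 to 2.2.

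The hormone pattern was also set among all other drugs of the screen, using log2 CPM minus the median of the drug libraries of each run. For 12 of the 15 largest rises with a mean of 1 CPM or more, a limit that leaves out rarer transcripts such as Stat5a, Prlr and Dio3, both hormone libraries exceeded all 216 other drugs, and for 2 of the 15 largest falls, Gcnt2 and Il4ra, both lay below all 216. Hr stood at 3.71 with T4 and 3.65 with T3, and the next highest library was Cyproheptadine·HCl Sesquihydrate at 0.96. Averaged over the 468 run rises, T4 stood at 0.52 and T3 at 0.52, while the highest other drug, Ciprofibrate, stood at 0.10. Over the 15 largest rises T4 and T3 both stood at 1.8 and Ciprofibrate at 0.47. Ciprofibrate came from another run, so this mean over genes chosen in the hormones' run is a description of that library. The rises and falls were themselves chosen from the 2 hormone libraries. The hormones' distance from other drugs over these genes was favoured by that choice and is no test. Klf9 was not particular to the hormones, with 6 other drugs above the lower hormone value, led by Dexamethasone at 0.82 beside 0.67 with T4 and 0.56 with T3. For Dio3, Lorazepam at 1.38 exceeded the T3 value of 1.35 and lay below the T4 value of 2.23.

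**Figure D5:**
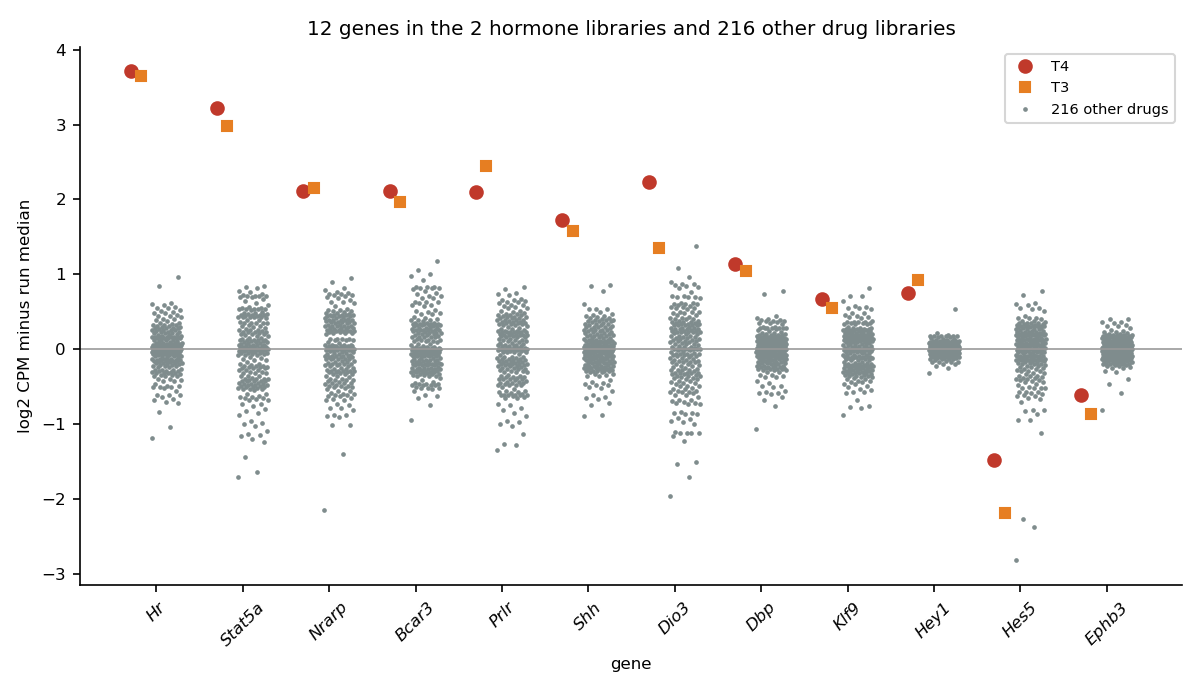
Log2 CPM minus the run median for 12 genes in T4 (circles), T3 (squares) and 216 other drugs (small points). For Hr the hormones stand at 3.71 and 3.65 and the highest other drug at 0.96, and for Klf9 other drugs reach 0.82 beside 0.67 and 0.56.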

How the data were processed

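RNA was measured in 227 libraries, and groups were taken from the agent in the labels and the run code from the library names. The count table deposited by the authors holds whole, unscaled reads for each gene. A second table of the authors gives RPKM, scaled by gene length and library total, used here only to compare levels between genes. Per the submitters' processing notes, the tools were edgeR 3.10.5, limma, STAR 2.4.0 and Subread 1.4.6 and the build mm10, with no role stated for each tool. Intervals cover the fitted spread between libraries, and 1 library a hormone gives no error of its own.

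Counts were tested in R 4.3.3 with edgeR 4.0.16 (TMM factors, default filter on low counts, quasi-likelihood F tests, Benjamini-Hochberg adjusted p under 0.05), treating T4 and T3 as 2 replicates of a class against the 29 other drugs of their run or the 9 vehicles. T4 minus T3 was a contrast of single libraries in a fit with the same 29 libraries. CPM used TMM factors over all 227 libraries, and levels across drugs a prior count of 1. Errors are standard errors. Scripts were tested on simulated data.

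The members, lists and tests were chosen with earlier results of these data known. Named genes had a mean CPM of 1 or more over the libraries compared and were, among calls within the run, the 15 that rose most and the 15 that fell most, and up to 5 more each way against vehicles. They also included 5 each way for T4 minus T3 at an unadjusted p under 0.05, members of the receptor, transport, deiodination, target and STAT5 lists, and list members past the threshold or with the 2 largest changes of their list. Not all are given in the text, and results for a few genes are not reported here. Lists are described by counts and medians without a test. Alternatives were RLE factors, no filter, DESeq2 1.42.0, limma 3.58.1 with a term for run code, other comparison libraries, and leaving out each library. Positions are from GENCODE vM21 on GRCm38 (mm10), in which all 191 named genes were found.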

Additional observations from a re-analysis of the deposited data

Results flagged for a closer look

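In 40 genes screened over the 9 vehicles, 3 had a vehicle whose gap to its nearest neighbour was large for the group's range, where chance alone gives about 1 in 20. Il4ra was at 2.79 CPM in vehicle 1, beside 1.4 to 1.83 CPM in the other vehicles. Ephb3 was at 42.4 CPM in vehicle 2, beside 33.7 to 36.8 CPM, and Prlr at 1.3 CPM in vehicle 2, beside 0.272 to 0.754 CPM.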

How the results depend on the processing

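Hr, Stat5a, Dio3, Prlr, Bcar3 and Shh passed within the run under every alternative tried there, of which there were 38. With limma and run code over all libraries, 301 genes rose within the run in place of 468, and 339 of the 584 calls were kept (58.0%); Klf9, Kcnj10, Angptl2, Etv5 and Gli2 no longer passed, although over all alternatives their log2 changes ranged over 0.57 to 0.76 for Klf9, 0.41 to 0.51 for Kcnj10, 1.1 to 1.86 for Angptl2, -0.87 to -0.77 for Etv5 and 0.55 to 0.64 for Gli2. Against the lane mates alone, 515 genes were called and 298 of the 584 kept (51.0%). Against vehicles, DESeq2 called 419 rises and 505 falls in place of 145 and 51. With RLE factors the number of falls went to 0 for both the myelin and the oligodendrocyte precursor lists, where Olig2 had been the 1 call. Leaving out each library gave 180 to 513 rises and 9 to 128 falls within the run, with only the hormone libraries moving them by over 1.5 times, and 22 to 183 rises and 1 to 128 falls against vehicles, lowest without a hormone library, where fewer samples enter. Leaving out vehicle 5 or 9 gave 109 or 119 calls against vehicles in place of 196, and leaving out vehicle 2 gave 306; the cause was not tested. Among the genes named against vehicles, Etv5 was lost without vehicle 5 or 9, Npsr1 without vehicle 5, Itga7 without vehicle 5, 6 or 7, and Nnmt and A830029E22Rik without each of vehicles 5, 6, 7 and 9. Klf9 against vehicles, at -0.01, ranged from -0.078 to 0.061 over these, above 0 without T3 or without vehicle 6, 7 or 8. With 1 library a hormone, changes in rare transcripts are the least certain. No paired analysis was possible because each drug has 1 library and the vehicle numbers pair with no drug.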
